A study of Ovis aries with 19 samples.

Results

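The effect of prenatal testosterone was compared between liver and muscle of the same sheep by asking, gene by gene, whether the treatment effect in muscle differed from that in liver. The quantity followed was the log2 treatment effect in muscle minus the log2 treatment effect in liver, taken on log2(normalized read count + 1), so a positive value means that muscle moved up relative to liver. It was measured over all 19 libraries of the series and over the 11697 of 28524 genes whose mean normalized count was at least 10 in both tissues. A further 1943 genes reached that mean in liver alone, 1269 in muscle alone and 13615 in neither, and these were not tested. The libraries came from 10 female sheep (Ovis aries), 5 labelled control and 5 labelled prenatal T-treatment, meaning exposure to excess testosterone before birth. Liver gave 4 control libraries (sheep 98, 131, 179 and 201) and 5 treated ones (sheep 48, 63, 185, 233 and 255). Muscle gave 5 control libraries, with sheep 132 in addition, and 5 treated ones from the same animals as in liver. Both tissues were therefore available in 9 of 10 sheep, and no liver library of sheep 132 was used here. The sources used here gave no breed, age at sampling, testosterone dose or name of the muscle.

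Liver and skeletal muscle respond to insulin in different ways. Liver makes fatty acids, triglyceride and cholesterol and exports them, whereas muscle takes up glucose and fatty acids and mostly burns them, with pyruvate dehydrogenase and the carnitine palmitoyltransferases as gates into the mitochondrion. Excess testosterone before birth is studied in female sheep as a model of polycystic ovary syndrome, in which reproductive and metabolic disturbances, including insulin resistance, occur together. The same hormone exposure can thus act on tissues whose lipid and glucose handling differ from the start.

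The tissue labels were borne out by the marker genes. ALB, the albumin of hepatocytes, ran from 112956 to 1212100 normalized counts in liver and reached 16.2 at most in muscle. ACTA1, the actin of skeletal muscle fibres, ran from 154279 to 304192 in muscle and reached 9.12 at most in liver. Reads per library, recovered from the values, numbered 10236610 to 16046301 in liver and 8455563 to 14331578 in muscle. The authors' scaling was set within each tissue, so liver and muscle levels are not on 1 scale, although the treatment effects compared here are each formed within a tissue.

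Some liver libraries stood apart from their groups. The first principal component of the liver libraries held 46.7% of their variance, against 19.4% in muscle, and it did not follow treatment. On it, control sheep 179 (56.7) lay beside treated sheep 48 (31.7) and 255 (63.4), and treated sheep 185 (-58.7) lay beside control sheep 98 (-46.7) and 201 (-39.4). On the first component of muscle, controls lay between 4.36 and 22.2. Treated sheep 48, 63, 185 and 233 lay between -35.8 and -12.7 there, and treated sheep 255 lay at 15.9. The spread within groups was wider in liver than in muscle, with a median SD over genes of 0.49 against 0.29 on the log2 scale. Liver contributed a median of 74.9% of the variance of the difference between tissues. What set these liver libraries apart was not tested.

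Across all genes few differences between the tissues could be called. By limma with Benjamini-Hochberg adjustment over the 11697 genes, 1 gene, TMEM82, passed an adjusted p of 0.05 (0.00855% of the genes tested). At an unadjusted p under 0.05 there were 573 genes (4.90%), of which 299 had the muscle effect above the liver effect (2.56%) and 274 below it (2.34%). DESeq2 on the recovered reads called 11 genes at an adjusted p of 0.05 (0.0940%), 5 above (0.0427%) and 6 below (0.0513%). Of these 11, 5 had a group mean under 10 in 1 tissue and so reached the filter there only through the group in which they were high, against 295 of all 11697 genes (2.52%), so that a difference was built into their selection. edgeR on the same reads called 0 genes (0%) and had 598 at an unadjusted p under 0.05 (5.11%). The median 95% interval reached 0.79 on the log2 scale to either side of the estimate. For 4892 genes (41.8%) that interval lay within a 2-fold change in either direction, and for the others a difference of 2-fold or more was not bounded away.

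The counts depended on the liver libraries named above. Without the liver library of control sheep 179 the unadjusted count was 1705 (14.6%), and COL18A1 joined TMEM82 past the adjusted threshold. Without that of treated sheep 185 it was 1078 (9.22%), with no adjusted call by limma. With both left out there were 3220 genes (27.5%) and 667 adjusted calls by limma. That last setting was chosen because each of the 2 libraries had raised the count when left out, so its counts describe the data and support nothing. Leaving out any other single library gave between 432 and 656 genes at an unadjusted p under 0.05.

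The treatment effects of the tissues were only loosely related. Over the 11697 genes Spearman's rho between the muscle and the liver effect was 0.108, given as a description across genes that are not independent, and it was -0.0045 without the liver library of control sheep 179. Effects of opposite sign were found for 5587 genes (47.8%). Among the 573 genes with an unadjusted p under 0.05 for the difference, 516 had effects of opposite sign (90.1%), which the choice of genes with a large difference favours. The liver effect was the larger in size for 337 of the 573 (58.8%), against 52.1% of all genes tested. The choice of genes with a large difference favours this as well, since liver contributed most of the variance of the difference. Liver values were lower in treated sheep for 188 of these 337, a split that was not counted over all genes. In 160 genes (1.37%) the control and treated ranges did not overlap in liver and in 399 (3.41%) they did not in muscle. Both held for 7 genes (0.0598%), all 7 shifted in the same direction in both tissues and 0 in opposite directions.

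**Figure D1:**
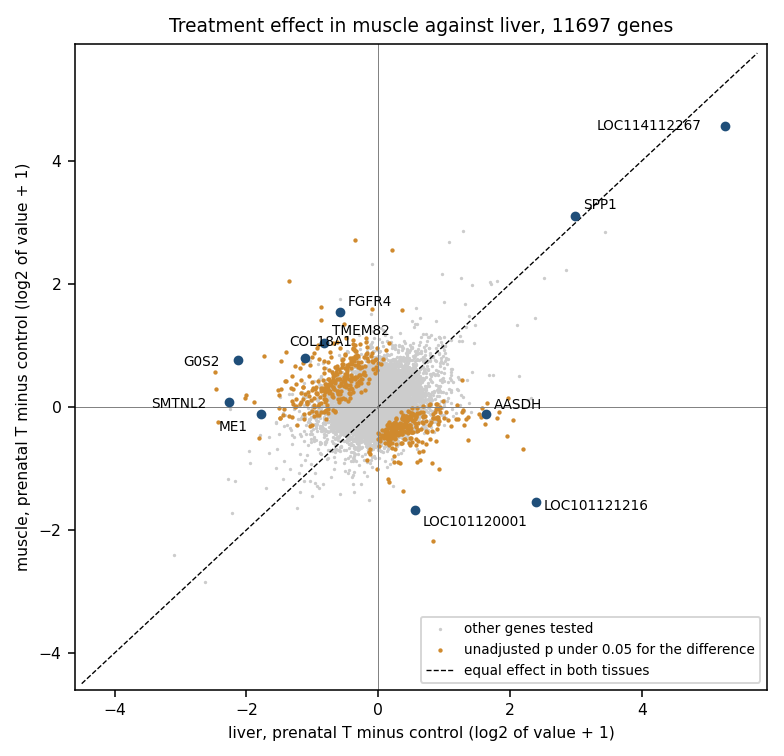
Treatment effect in muscle (vertical axis) against liver (horizontal axis), prenatal T minus control on log2(normalized count + 1), 1 point per gene for 11697 genes, with the 573 genes at an unadjusted p under 0.05 for the difference in orange and named genes in blue. Most orange points lie in the quadrants of opposite sign, TMEM82 stands at 1.04 in muscle and -0.82 in liver, and LOC114112267 and SPP1 lie near the dashed line of equal effects.

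TMEM82, which is named as a transmembrane protein, had a treatment effect in muscle above that in liver, with higher values in treated muscle and lower values in treated liver. Values below are normalized counts, listed for controls in the order of sheep 98, 131, 179 and 201 in liver and 98, 131, 132, 179 and 201 in muscle, and for treated sheep in the order 48, 63, 185, 233 and 255. TMEM82 in liver stood at 623, 547, 437 and 476 in controls and at 200.5, 442, 241, 349 and 284 in treated sheep. In muscle it stood at 36.7, 34.6, 31.9, 31.3 and 30.1 in controls and at 87.3, 55.8, 75.6, 75.8 and 55.3 in treated sheep. All treated muscles were above all control muscles, while in liver the groups overlapped only through treated sheep 63. The means were 521 ± 81.8 (SD, n = 4) against 303 ± 95.2 (SD, n = 5) in liver and 32.9 ± 2.69 (SD, n = 5) against 70.0 ± 14.0 (SD, n = 5) in muscle. The difference between tissues was 1.87 ± 0.30 (SE), with a limma adjusted p of 0.0497 and a DESeq2 adjusted p of 0.000344.

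The within-sheep values of TMEM82 separated control from treated sheep, which its choice by the smallest p favours, and the call was marginal. Within a sheep, log2 muscle minus log2 liver ran from -4.05 to -3.76 in the 4 controls and from -2.96 to -1.19 in the 5 treated sheep, with no overlap. In a fit of these within-sheep differences, which uses the pairing, the estimate was 1.85 and the limma adjusted p was 0.504. With the sheep as a random block over 19 libraries the limma adjusted p was 0.0276. The estimate lay between 1.73 and 2.01 without any 1 library. The limma call held without liver control 179, liver treated 63 or muscle treated 255, and it was lost without any other single library, with the highest adjusted p by limma, 0.233, without liver control 98.

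Among the other genes whose muscle effect was above the liver effect, 4 were called by DESeq2 and not by limma on all 19 libraries. COL18A1 encodes collagen XVIII, a basement membrane collagen that is also the source of endostatin. COL18A1 in liver stood at 8123, 4225, 2920 and 7471 in controls and at 2460, 2575, 2403, 2533 and 2113 in treated sheep. In muscle its values were 97.3, 110.4, 62.7, 109 and 76.6 in controls and 92.3, 149.7, 208, 219.8 and 144 in treated sheep. The liver groups did not overlap, and in muscle treated sheep 48 alone lay within the control range. The difference between tissues was 1.91 ± 0.38 (SE), with a DESeq2 adjusted p of 0.00108 and a limma adjusted p of 0.352.

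FGFR4, the receptor through which FGF19 restrains bile acid synthesis in hepatocytes, showed its larger shift in muscle, where its level was low. FGFR4 in muscle was at 5.95, 9.74, 3.30, 9.29 and 13.7 in controls and at 16.2, 24.3, 19.6, 34.9 and 30.1 in treated sheep, with no overlap. In liver it was at 232, 159, 69.7 and 236 in controls and at 95.5, 112, 140.1, 88.8 and 93.2 in treated sheep, a range that lay inside that of the controls through control sheep 179. The difference was 2.12 ± 0.51 (SE), with adjusted p-values of 0.0244 by DESeq2 and 0.547 by limma. With muscle means of 8.39 in controls and 25.03 in treated sheep, FGFR4 reached the filter in muscle only through the treated group.

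SMTNL2 and AKAP6, a smoothelin-like protein and an A-kinase anchoring protein of striated muscle, were both abundant in muscle and low in liver. Their differences came mainly from lower values in treated livers. SMTNL2 in liver was at 148, 242, 116 and 164 in controls and at 73.1, 73.9, 8.24, 27.8 and 28.2 in treated sheep, while its muscle means were 5539 ± 647 and 5881 ± 1071 (SD, n = 5 each). AKAP6 in liver was at 16.2, 7.75, 59.7 and 8.90 in controls and at 2.36, 5.43, 5.15, 1.07 and 4.33 in treated sheep. Both genes had liver groups that did not overlap and muscle groups that did. The differences were 2.35 ± 0.56 (SE) for SMTNL2 and 2.20 ± 0.61 (SE) for AKAP6, each with a DESeq2 adjusted p of 0.0341, and limma adjusted p-values of 0.547 and 0.624. AKAP6 reached the filter in liver only through its controls (mean 23.1 against 3.67 in treated sheep), and only with its highest library. That was the liver of control sheep 179, and without it the difference was 1.601.

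Markers of muscle fibres in the liver libraries were also lower in treated sheep. The 2 genes did not follow each other among control livers, where sheep 179 was highest for AKAP6 (59.7) and lowest for SMTNL2 (116). The 10 fibre markers measured summed to 58.8 to 166 normalized counts in control livers and to 27.1 to 49.5 in treated livers, with CKM and 1 other marker at 0 in every treated liver, ACTA1 at 9.12 at most and NEB, the giant thin-filament protein, carrying 54.9 of the control mean against 16.1. NEB itself had a difference of 1.29 and was at an unadjusted p under 0.05. In muscle the same 10 markers summed to 1948880 to 2232190 in controls and to 1031570 to 1959270 in treated sheep. The part of these markers in the SMTNL2 and AKAP6 differences was not tested. In bulk tissue, fewer cells of a type and less RNA per cell cannot be told apart.

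The remaining genes named for a muscle effect above the liver effect were CLCN5, RNASE13, CANT1 and LAMB3, with differences from 1.30 to 2.28, none of which was called by limma or DESeq2. CLCN5, an endosomal chloride and proton exchanger, averaged 98.8 ± 14.5 in control livers and 52.7 ± 10.8 in treated livers, without overlap (SD, n = 4 and 5), and 158 ± 60.9 and 275 ± 115 in muscle, with overlap (SD, n = 5 each). CANT1, a calcium-activated nucleotidase, differed through liver, where controls ran from 887 to 1273 and treated sheep from 213 to 605, while its muscle means were 238 and 210.2. LAMB3, a laminin chain of basement membranes, and RNASE13, a ribonuclease family member, had muscle groups that did not overlap, at means of 17.5 and 32.9 for LAMB3 and of 57.0 and 114 for RNASE13. Their liver ranges overlapped, with means of 249 and 101 for LAMB3 and of 708 and 426 for RNASE13.

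**Figure D2:**
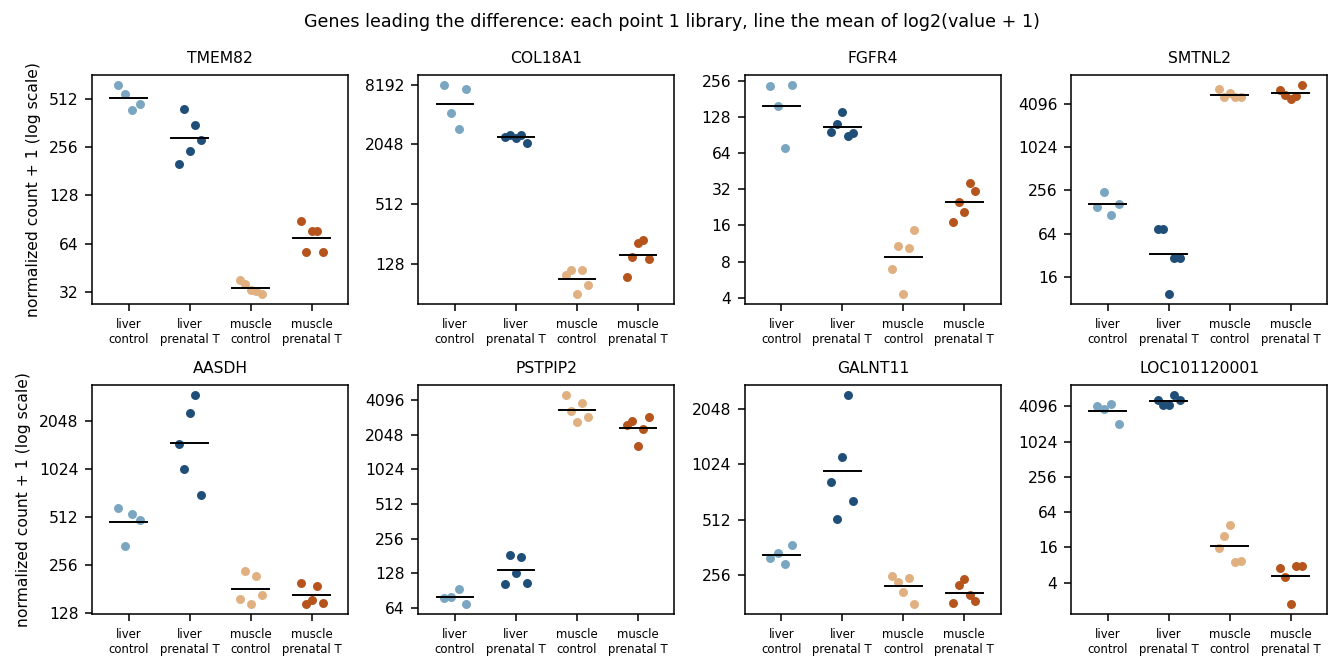
Normalized count + 1 on a log scale for 8 genes, 1 point per library in the groups liver control (n = 4), liver prenatal T (n = 5), muscle control (n = 5) and muscle prenatal T (n = 5), with a line at the mean of log2(value + 1). TMEM82, COL18A1 and FGFR4 have lower treated means in liver and higher treated means in muscle, AASDH and GALNT11 have treated livers above all control livers and overlapping muscle groups, and LOC101120001 lies between 0.727 and 6.81 in treated muscle.

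In the opposite direction, with the liver effect above the muscle effect, limma called 0 genes at an adjusted p of 0.05 (274 at an unadjusted p under 0.05) and DESeq2 called 6. AASDH, an aminoadipate-semialdehyde dehydrogenase homologue, had its shift in liver. AASDH in liver was at 580.0, 337, 534 and 491 in controls and at 1469, 1014, 2285, 2951 and 701 in treated sheep. Its muscle values were 156, 234, 146, 217 and 165 in controls and 198, 146, 154, 190.0 and 148 in treated sheep. Every treated liver was above every control liver, whereas the muscle groups overlapped throughout. The difference was -1.76 ± 0.42 (SE), with adjusted p-values of 0.0244 by DESeq2 and 0.547 by limma.

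GALNT11, a transferase that starts O-linked glycan chains, had the same layout. GALNT11 in liver was at 314, 335, 294 and 369 in controls and at 818, 515, 1121, 2437 and 644 in treated sheep, without overlap and with treated sheep 233 the highest. In muscle its means were 222 ± 30.5 and 205 ± 27.5 (SD, n = 5 each), and the groups overlapped. The difference was -1.64 ± 0.41 (SE), with adjusted p-values of 0.0341 by DESeq2 and 0.547 by limma. LOC101106372, which the gene table of ARS-UI_Ramb_v3.0 lists as PRICKLE2, a planar cell polarity protein, was not called by DESeq2 but had the largest liver shift of the genes named in this direction by limma. LOC101106372 in liver was at 96.4, 63.0, 265 and 189 in controls and at 435, 491, 359, 472 and 575 in treated sheep, without overlap, against muscle means of 68.5 ± 12.5 and 62.2 ± 24.1 (SD, n = 5 each).

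PSTPIP2, an F-BAR adaptor protein of the membrane cytoskeleton, had shifts in both tissues that pointed apart. PSTPIP2 in liver was at 76.3, 77.5, 92.0 and 67.9 in controls and at 103, 184, 128, 176 and 104 in treated sheep. In muscle it was at 4531, 3301, 2661, 3842 and 2937 in controls and at 2495, 2678, 1642, 2307 and 2952 in treated sheep. The liver groups did not overlap and the muscle groups overlapped at their edges. The difference was -1.30 ± 0.30 (SE), with adjusted p-values of 0.0341 by DESeq2 and 0.547 by limma.

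DUSP26, a dual-specificity phosphatase, was abundant in muscle and low in liver. DUSP26 in liver was at 3.88, 13.6, 4.15 and 14.5 in controls and at 60.1, 27.2, 13.4, 30.0 and 58.5 in treated sheep, so treated sheep 185 alone fell within the control range. Its muscle means were 6244 ± 426 and 6988 ± 1069 (SD, n = 5 each). The difference was -1.82 ± 0.51 (SE), with adjusted p-values of 0.0375 by DESeq2 and 0.624 by limma. DUSP26 reached the filter in liver only through its treated group, at a mean of 37.8 against 9.01 in controls. In liver it lay higher in treated sheep, whereas the sum of the muscle fibre markers there lay lower. The part of these markers in the DUSP26 difference was not tested.

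Of the 6 genes called by DESeq2 in this direction, LOC101120001 and LOC101121216 are protein-coding genes without a symbol, abundant in liver and near the limit of detection in muscle. LOC101120001 in muscle was at 14.9, 23.8, 37.4, 8.13 and 8.20 in controls and at 6.09, 4.05, 0.727, 6.81 and 6.80 in treated sheep, without overlap, and its liver means were 3589 ± 1106 (SD, n = 4) and 5111 ± 823 (SD, n = 5). LOC101121216 in muscle was at 5.95, 9.74, 119.9, 0 and 15.0 in controls and at 6.09, 1.62, 3.63, 1.70 and 1.94 in treated sheep, and in liver at 3652, 537, 1125 and 4150 in controls and at 4419, 10025, 15506, 12770 and 7078 in treated sheep. Control muscle of sheep 132 held 119.9 of LOC101121216, and without that library the difference of -3.93 ± 1.19 (SE) became -3.06, while without the muscle library of control sheep 179, which held 0, it became -4.79. Both genes reached the filter in muscle only through the controls, at means of 18.5 against 4.89 for LOC101120001 and 30.1 against 2.997 for LOC101121216, and only with the highest library, which was control sheep 132 for each. The adjusted p-values of LOC101121216 were 0.0414 by DESeq2 and 0.760 by limma, and those of LOC101120001 were 0.0173 and 0.586. Hepatocyte markers in muscle summed to 48.6 to 149 in controls and 36.9 to 181 in treated sheep over 9 genes, and the groups overlapped, with ALB at 16.2 and 15.3 at most.

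Other genes named for a liver effect above the muscle effect were FAM76A, NFYB, RNF145 and DHX15, with differences from -1.19 to -0.96 and limma adjusted p-values of 0.547 to 0.582. NFYB, a subunit of the NF-Y transcription factor, averaged 549 ± 169 (SD, n = 4) and 1027 ± 284 (SD, n = 5) in liver and 529 ± 57.4 and 438 ± 68.7 (SD, n = 5 each) in muscle. RNF145, a ubiquitin ligase of the endoplasmic reticulum linked to sterol control, averaged 396 and 677 in liver and 2208 and 1667 in muscle. DHX15, a splicing helicase, averaged 896 and 1630 in liver and 739 and 677 in muscle. The liver groups did not overlap for NFYB and did for the other 3.

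Of the 20 gene lists, triglyceride synthesis and de novo lipogenesis had the median differences furthest from 0. Over all genes tested 2.56% were above and 2.34% below at an unadjusted p under 0.05, and 51.4% had a difference below 0, and the counts of each list are set against these shares. The share at an unadjusted p under 0.05 was 14.6% of all genes without the liver library of control sheep 179 and 9.22% without that of treated sheep 185, so list counts in those settings had a higher background. Of 24 tested genes of triglyceride synthesis and lipid droplets, 8 had a muscle effect above the liver effect and 1 below it at an unadjusted p under 0.05, which is 37.5% against 4.90% of all genes tested, with 0 past the adjusted threshold by limma. The median difference of that list was 0.69, from a median of 0.09 in muscle and -0.69 in liver, against a median difference of -0.016 over all genes tested. De novo lipogenesis had 6 of 19 genes above and 0 below, with a median of 0.49 from -0.04 in muscle and -0.65 in liver. Cholesterol synthesis and uptake had 3 of 20 above and 0 below, with a median of 0.30 from -0.02 in muscle and -0.33 in liver. The medians lay further from 0 in liver than in muscle. Lower lipid genes in treated livers had already been seen in these data, so the lists are no independent evidence of that direction.

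The lipid counts shifted with single animals. Without the liver library of control sheep 98 the genes above numbered 5 for triglyceride synthesis, 2 for de novo lipogenesis and 1 for cholesterol. With the pairing of tissues within 9 sheep they numbered 8, 6 and 2, and with cyclic loess scaling 9, 8 and 5. Without the liver library of control sheep 179 the triglyceride list had 9 above and 1 below, and without that of treated sheep 185 it had 11 above and 1 below. The median difference of the triglyceride list lay between 0.57 and 0.82 without any 1 library. That of de novo lipogenesis lay between 0.38, without the liver library of control sheep 98, and 0.79, without that of control sheep 201, and that of cholesterol synthesis between 0.20 and 0.38.

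G0S2, the inhibitor of the triglyceride lipase ATGL, had the widest difference of the named lipid genes. G0S2 in liver was at 1295, 3443, 2718 and 1438 in controls and at 928, 1906, 137, 162 and 554 in treated sheep. In muscle, where the gene was low, it was at 7.94, 9.74, 8.80, 13.9 and 13.7 in controls and at 27.4, 20.2, 25.4, 11.1 and 13.6 in treated sheep. In both tissues the groups overlapped, but within a sheep the log2 muscle minus liver value ran from -8.32 to -6.62 in controls and from -6.49 to -2.38 in treated sheep. G0S2 was named for a small p of the difference in its list, which favours such a separation. The difference was 2.89 ± 0.77 (SE), with a limma adjusted p of 0.586.

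The other members of the triglyceride list at an unadjusted p under 0.05 covered both synthesis and storage. AGPAT1, an acyltransferase of phosphatidate synthesis, was at 197, 218, 201, 218 and 208 in control muscles and at 348, 257, 346, 287 and 276 in treated muscles, without overlap. In liver AGPAT1 was at 485, 443, 229 and 433 in controls and at 231, 308, 442, 195 and 122 in treated sheep, where control sheep 179 was the lowest control and treated sheep 185 the highest treated animal, and the groups overlapped. The droplet coat protein PLIN2 had a difference of 2.16 and averaged 3371 and 878 in liver and 895 and 1004 in muscle. PLIN5, MGLL, GPAT3, DGAT1 and FITM2, which coat droplets, cut monoglyceride, make triglyceride or form droplets, had differences from 0.83 to 1.34. LPIN1, the phosphatidate phosphatase that is also a coregulator in muscle, had a difference of -1.24, from means of 7484 and 3940 in muscle and of 54.7 and 71.7 in liver.

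Lipogenic genes differed through liver as well. ME1, malic enzyme, which supplies NADPH for fatty acid synthesis, was at 225, 71.7, 206 and 35.6 in control livers and at 17.7, 60.8, 24.7, 34.3 and 26.0 in treated livers. Its muscle means were 795 ± 121 and 740.5 ± 147 (SD, n = 5 each), and the groups overlapped in both tissues. SLC25A1, the mitochondrial citrate carrier, was at 1277, 888, 365 and 1140 in control livers and at 317, 509, 749, 443 and 307 in treated livers, and at 163, 173, 102, 122 and 124 in control muscles and 251, 158, 191, 156 and 158 in treated muscles. The ranges of SLC25A1 overlapped in liver through control sheep 179. The differences were 1.66 ± 0.56 (SE) for ME1 and 1.33 ± 0.43 (SE) for SLC25A1, with limma adjusted p-values of 0.885 and 0.836. SREBF1, the transcription factor that drives lipogenic genes, had a difference of 1.12, and FADS1, FADS2 and ACACB, desaturases and an acetyl-CoA carboxylase, had differences of 1.16, 1.12 and 1.39. Of the cholesterol genes, MVK and DHCR7, mevalonate kinase and an enzyme of the last step, had differences of 1.05 and 1.25, and SREBF2, the regulator of the pathway, had one of 0.72.

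The 9 adipocyte markers summed to 354 to 641 in control and 191 to 415 in treated livers, with ADIPOQ at 0 in every control liver, and to 1832 to 3329 and 1488 to 2998 in muscle. Over the 5 of 9 that were tested the median effects were -0.93 in liver and -1.01 in muscle, the median difference was 0.32, and 0 of 5 were at an unadjusted p under 0.05. The lists share CIDEA, CIDEC, LIPE and PLIN1. The part of fat cells in the lipid differences was not tested.

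**Figure D3:**
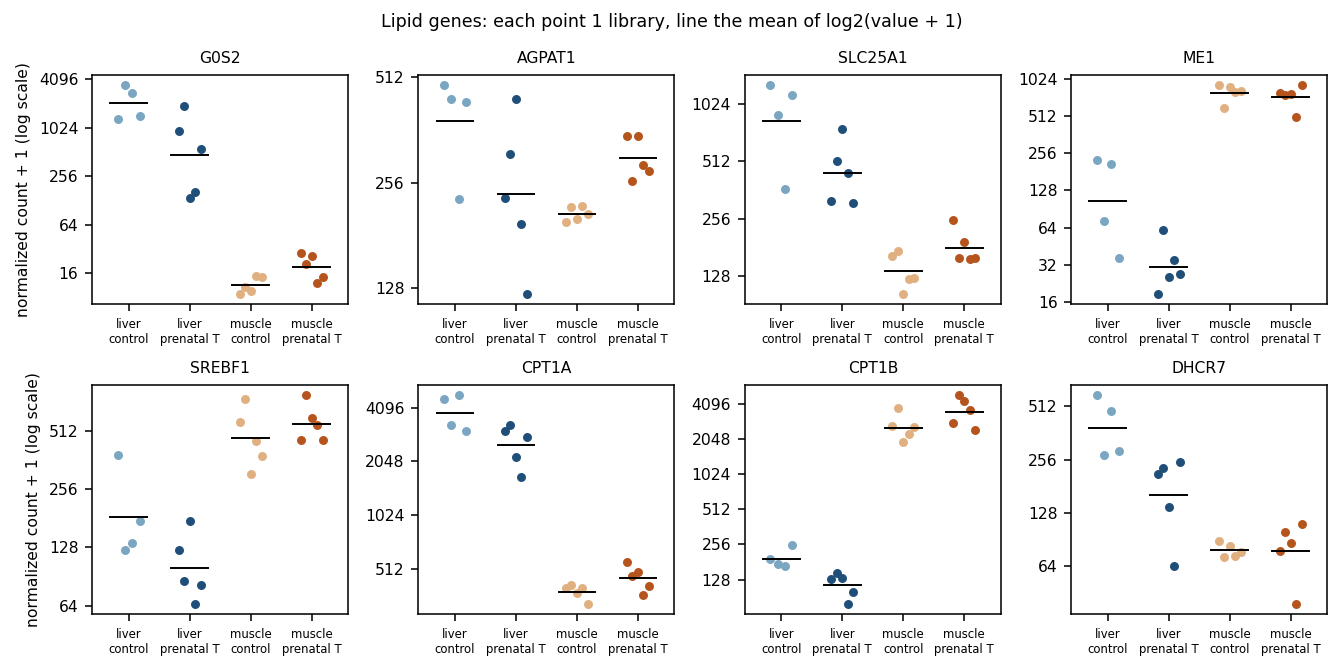
Normalized count + 1 on a log scale for 8 lipid genes, 1 point per library in the 4 groups (n = 4, 5, 5 and 5), with a line at the mean of log2(value + 1). G0S2 averages 2223 in control and 737 in treated livers, and CPT1B 195 and 116 in liver against 2623 and 3604 in muscle.

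Genes that carry fatty acids into mitochondria and break them down also had members on the side of muscle above liver. Of 25 tested genes of fatty acid oxidation and ketone bodies, 6 had a muscle effect above the liver effect and 1 below at an unadjusted p under 0.05, which is 28% against 4.90% of all genes tested, although the median difference of the list was 0.06. That median lay between -0.087, without the liver library of treated sheep 185, and 0.14, without that of treated sheep 233. The 6 were CPT1B and CPT1A, the muscle and liver forms of carnitine palmitoyltransferase 1, CPT2, the carnitine carrier SLC25A20, and HADHA and HADHB, both subunits of the trifunctional protein. Their liver effects ran from -1.01 to -0.56. OXCT1, which lets muscle use ketone bodies, was the 1 below, at -0.72. The count above was 3 without the control muscle of sheep 132 and 3 in the paired fit of 9 sheep, and the count below was 4 without the liver library of treated sheep 185 and 2 without that of control sheep 179, settings with the higher background given above.

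CPT1B and CPT1A had within-sheep values that did not overlap between control and treated sheep. Both were named for the smallest p of the difference in their list, which favours such a separation. CPT1B in liver was at 190.1, 172, 168 and 250.4 in controls and at 127, 146, 132, 78.1 and 98.6 in treated sheep, and in muscle at 2654, 3725, 1910, 2251 and 2576 in controls and at 2803, 4837, 4321, 3635 and 2422 in treated sheep. The liver groups of CPT1B did not overlap and the muscle groups did. CPT1A in liver was at 4612, 3261, 4814 and 3026 in controls and at 3050, 3285, 2170, 1676 and 2811 in treated sheep, and in muscle at 401, 412, 373, 399 and 324 in controls and at 561, 465, 489.9, 363 and 411 in treated sheep. Within a sheep, log2 muscle minus liver of CPT1B ran from 3.36 to 4.43 in controls and from 4.45 to 5.52 in treated sheep, and that of CPT1A from -3.59 to -2.98 and from -2.82 to -2.14, without overlap in either gene. The differences were 1.20 ± 0.32 (SE) for CPT1B and 0.86 ± 0.28 (SE) for CPT1A, with limma adjusted p-values of 0.590 and 0.836.

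Carbohydrate genes lay on the other side of 0. Of 26 tested genes of glycolysis and pyruvate dehydrogenase, 19 had a muscle effect below the liver effect (73.1%, against 51.4% of all genes tested), with a median difference of -0.25 from -0.33 in muscle and -0.10 in liver. At an unadjusted p under 0.05 there were 0 above and 3 below (11.5%, against 4.90%), namely LDHA, PKM and PDHA1, for lactate dehydrogenase, pyruvate kinase and a pyruvate dehydrogenase subunit. LDHA in muscle was at 30142, 34670, 30618, 31027 and 18458 in controls and at 11160, 25981, 19550, 25988 and 14614 in treated sheep, so the groups overlapped only through control sheep 201. LDHA in liver averaged 146 ± 60.8 (SD, n = 4) and 199 ± 54.0 (SD, n = 5), and the difference was -1.10 ± 0.39 (SE) with a limma adjusted p of 0.897. The count below was 5 without the treated muscle of sheep 63. It was 1 without the liver library of control sheep 131 or 201 or treated sheep 233, and without the muscle library of control sheep 98, 131 or 179 or treated sheep 48, 185 or 255. Fibre markers were also lower in treated muscles, with a median sum of 2110980 in controls and 1615340 in treated sheep. The sums ran from 1948880 to 2232190 and from 1031570 to 1959270. The part of this shift in the carbohydrate and mitochondrial lists was not tested.

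The mitochondrial lists had small medians below 0 whose size, and for the respiratory chain the sign, depended on single libraries. The citrate cycle had a median difference of -0.19 over 21 genes, with SUCLG1, a succinate-CoA ligase subunit, at an unadjusted p under 0.05, and the median was 0.006 with cyclic loess scaling. It was -0.018 without the liver library of control sheep 179 and -0.10 without that of treated sheep 185, -0.11 without the muscle library of control sheep 131 and -0.12 without that of treated sheep 48. It was -0.35 without the muscle library of treated sheep 63, -0.302 without that of control sheep 132 and -0.297 without the liver library of control sheep 201. Respiratory chain subunits had 34 of 41 genes below 0 (82.9%, against 51.4% of all genes tested), a median of -0.15 and 0 genes at an unadjusted p under 0.05. Without the liver library of control sheep 98 the median was 0.04 and 25 of 41 genes lay above 0, and the median was also 0.04 under cyclic loess. The median was -0.31 and -0.26 without the liver libraries of control sheep 179 and treated sheep 185, and -0.055, -0.064 and -0.077 without the liver library of treated sheep 255, the muscle library of control sheep 131 and the muscle library of treated sheep 255. For 29 of these 41 genes the 95% interval lay within a 2-fold change either way.

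Among the lists of growth, protein handling and hormone action, insulin signalling had the largest share of genes at an unadjusted p under 0.05. Insulin to PI3K, AKT and mTOR signalling had 2 of 28 above, PIK3R2, a regulatory subunit of PI3K, and EIF4EBP1, the translation repressor that mTORC1 phosphorylates, and 1 below, FOXO3, together 10.7% against 4.90% of all genes tested. The count above was 0 without the liver library of control sheep 98 or 201 or treated sheep 48 or 233, and without the muscle library of control sheep 131 or 201 or treated sheep 63, 185 or 255. FOXO3, a transcription factor restrained by AKT, had muscle groups that did not overlap, at 3555 to 7864 in controls and 2432 to 3040 in treated sheep, and liver means of 597 and 539. Cytosolic ribosomal proteins had 0 of 66, the IGF axis 0 of 14, steroid receptors and steroid converting enzymes 0 of 21, heat shock proteins 0 of 24, FOXO, atrophy ligases and autophagy 0 of 28, and antigen presentation and proteasome 0 of 39. FOXO3 was counted in the insulin list alone, so the 0 of 28 does not cover it. For 48 of the 66 ribosomal and 34 of the 39 antigen presentation genes the 95% interval lay within a 2-fold change. For the IGF axis this held for 0 of 14, so differences of 2-fold or more were not bounded there.

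In the circadian clock 1 of 21 genes was above and 2 were below at an unadjusted p under 0.05, together 14.3% against 4.90% of all genes tested. The count above was 0 without the liver library of control sheep 201 and 2 without that of control sheep 179 or the muscle library of control sheep 132. NR1D1, the repressor REV-ERB alpha, had a difference of 1.63 from liver means of 215 and 92.6 and muscle means of 254 and 325. CRY1, a repressor of the clock's core loop, was at 73.7, 70.7, 70.5 and 63.4 in control livers and at 59.0, 91.3, 112, 128 and 121 in treated livers, so treated sheep 48 alone was not above the controls. CRY1 in muscle averaged 664 ± 158 and 464 ± 85.3 (SD, n = 5 each), and the difference was -1.005 ± 0.31 (SE) with a limma adjusted p of 0.763. NFIL3, a clock-output repressor, was at 289 to 459 in control livers and 508 to 1466 in treated livers, without overlap, and its muscle ranges overlapped. The sources used here gave no time of day of sampling.

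Nuclear pore and transport genes were mostly below 0, at 26 of 31 (83.9%, against 51.4% of all genes tested), with a median difference of -0.21 from -0.16 in muscle and 0.10 in liver. NUP58, a nucleoporin of the central channel, was the 1 at an unadjusted p under 0.05, at 259 to 319.6 in control muscles and 145 to 207 in treated muscles, and 1 of 31 is 3.23%, against 4.90% of all genes tested. The count was 6 without the liver library of control sheep 179 (19.4%, against 14.6% of all genes) and 3 without that of treated sheep 185 (9.68%, against 9.22%), and the median was -0.10 without that of control sheep 201. Endoplasmic reticulum stress and folding had 1 of 26 below (3.85%, against 4.90% of all genes tested), HERPUD1, which acts in the removal of misfolded proteins. Its median difference of -0.14 lay between -0.23 and -0.062 without 1 library, the latter without the liver library of treated sheep 185. Collagen and matrix genes had a median difference of 0.23, with COL18A1 and COL15A1, both basement membrane collagens, above, and FN1, fibronectin, below. These 3 of 35 are 8.57%, against 4.90% of all genes tested, and the count above was 5 without the liver library of treated sheep 185. The median was 0.060 without the liver library of treated sheep 48 and between 0.093 and 0.14 without the liver library of control sheep 98 or treated sheep 63 or the muscle library of control sheep 98 or 201 or treated sheep 185 or 233.

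The interferon and inflammatory lists held genes at an unadjusted p under 0.05 at about the share of all genes tested (4.90%). Interferon-stimulated genes had a median difference of 0.46, with 5 of 21 below 0 (23.8%, against 51.4% of all genes tested). At an unadjusted p under 0.05 there was 1 of 21 (4.76%), DHX58, a sensor of viral RNA. The median was 0.28 and 0.26 without the liver libraries of control sheep 179 and treated sheep 185. It was 0.011 without the liver library of control sheep 98, which held 392 of DHX58 against 96.2 to 175 in the other control livers. With both tissues of 1 sheep left out, the median fell to -0.097 at the lowest, so its sign depended on 1 animal. Inflammatory cytokines and NF-kB targets had 1 of 19 below (5.26%), IL6R, the interleukin 6 receptor, at muscle means of 1372 ± 278 and 948 ± 89.7 (SD, n = 5 each). T and NK cell markers summed to 470 to 652 in control and 516 to 1024 in treated livers and to 334 to 481 and 434 to 723 in muscle, with median effects of 0.44 in liver and 0.51 in muscle over 11 genes and 0 of 11 at an unadjusted p under 0.05 for the difference. The part of these cells in the immune lists was not tested. Markers of B and plasma cells (0 of 1), macrophages (0 of 6), endothelium (0 of 9) and fibroblasts and stellate cells (0 of 8) held 0 tested genes at an unadjusted p under 0.05, and 0 erythroid markers were tested.

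**Figure D4:**
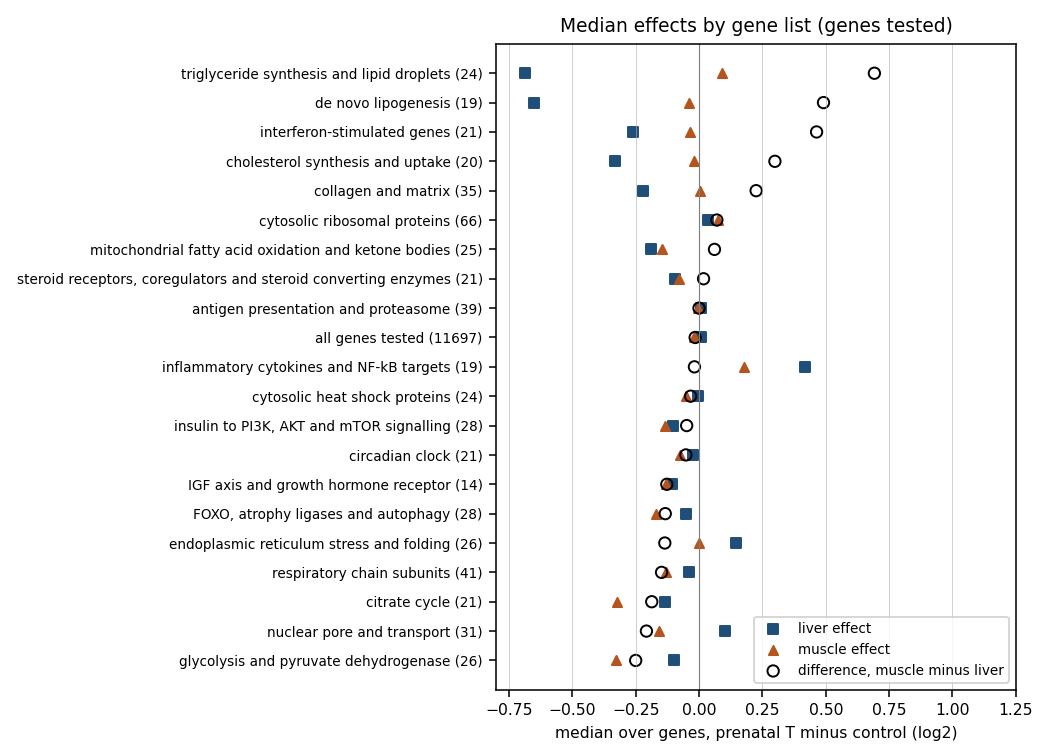
Median treatment effect in liver (squares) and muscle (triangles) and median of the difference, muscle minus liver (circles), on the log2 scale, over the tested genes of 20 lists and over all 11697 genes, with the number tested in brackets. The triglyceride and lipogenesis lists lie at 0.69 and 0.49 with squares at -0.69 and -0.65, and the list of glycolysis lies lowest at -0.25.

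Receptors and regulators of hormone and energy signalling were followed as a set of 15 genes that also holds LOC114112267. SREBF1 and CPT1A had 95% intervals that excluded 0 before adjustment, and the other genes did not. INSR, the insulin receptor, was the most tightly bounded near 0, with a difference of 0.0035 and an interval from -0.51 to 0.52, and means of 1327 and 1359 in liver and of 1268 and 1308 in muscle. ADIPOR1 and ADIPOR2, the adiponectin receptors, had intervals from -0.52 to 0.52 and from -0.69 to 0.76. IRS1 and IRS2, the docking proteins of the insulin receptor, had differences of 0.29 and -0.77.

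NR3C1, the glucocorticoid receptor, had a difference of -0.17 with an interval from -0.84 to 0.50, inside a 2-fold change either way. ESR1, the oestrogen receptor, had a difference of -0.48 with an interval from -1.17 to 0.21. The growth hormone axis had wider intervals. GHR, the growth hormone receptor, and IGF1, its target in liver, had differences of -0.72 and -0.11 with intervals from -1.65 to 0.22 and from -1.21 to 0.99. PDK4, the kinase that shuts pyruvate dehydrogenase, was at 59867, 57837, 87014, 63569 and 82126 in control muscles and at 12616, 82430, 66203, 60897 and 4922 in treated muscles, so treated sheep 48 and 255 were low and the other 3 were within the control range. Its difference of -0.86 had an interval from -2.58 to 0.85.

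**Figure D5:**
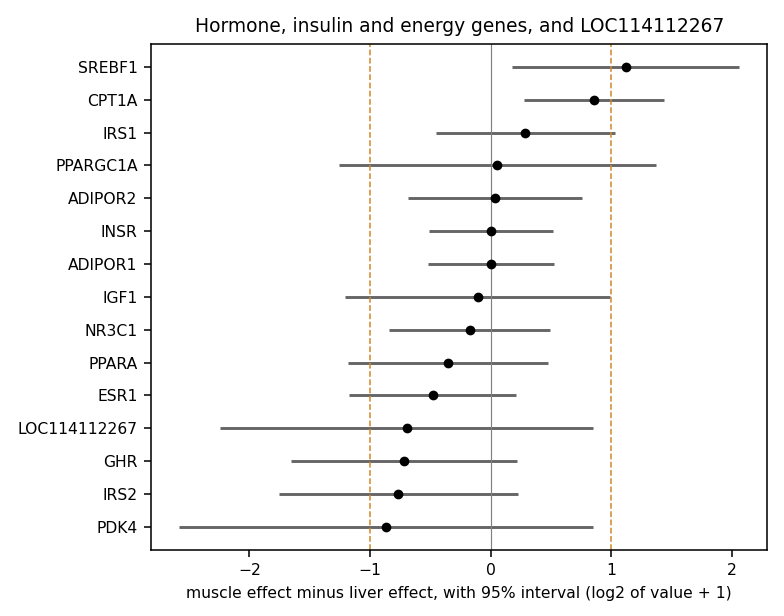
Difference of the treatment effects, muscle minus liver, on the log2 scale for 15 genes, with 95% intervals from limma and dashed lines at a 2-fold change either way. The intervals of INSR, ADIPOR1, ADIPOR2 and NR3C1 lie within the dashed lines, and those of SREBF1 and CPT1A exclude 0.

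At the other end, several genes shifted by like amounts in both tissues. LOC114112267, which the gene table does not list, was at 0.647, 0, 0 and 1.11 in control livers and at 59.0, 26.1, 102, 46.0 and 48.8 in treated livers. In muscle it was at 0.992, 2.16, 0, 3.48 and 0 in controls and at 66.0, 18.6, 66.9, 25.6 and 87.4 in treated sheep. It passed the filter through its treated libraries, the groups did not overlap in either tissue, and the difference of -0.70 had an interval from -2.24 to 0.85, which does not show that the effects were equal. SPP1, which encodes osteopontin, was at 434, 82.3, 2223 and 1576 in control livers and at 5044, 1827, 5549, 8457 and 5496 in treated livers. In muscle SPP1 was at 1.98, 0, 0, 0 and 97.1 in controls and at 3.04, 115, 5.09, 799.9 and 4.85 in treated sheep, and the interval of its difference ran from -3.96 to 4.18.

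The other genes with ranges apart in both tissues were PAPOLB, DMTF1, NSUN6, LOC105603786, LOC101109273 and LOC105614852, which were singled out after their values were seen. NSUN6, an RNA cytosine methyltransferase, averaged 132 ± 15.7 (SD, n = 4) and 230.2 ± 48.6 (SD, n = 5) in liver and 166 ± 42.0 and 299.5 ± 38.8 (SD, n = 5 each) in muscle, and the interval of its difference ran from -0.49 to 0.68. DMTF1, a Myb-like transcription factor, averaged 163 and 216 in liver and 212 and 266 in muscle, with an interval from -0.52 to 0.35. For both genes the data thus bound a difference between tissues to within a 2-fold change either way. PAPOLB, a poly(A) polymerase, was lower in treated sheep in both tissues, at 66.2 and 47.6 in liver and 178 and 100.2 in muscle.

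LOC114109396 and LOC114114488, also absent from the gene table, followed the animal more than the tissue. LOC114109396 was at 314, 14.5, 721 and 12.2 in control livers and at 432, 20.6, 604, 539 and 9.57 in control muscles, so sheep 131 and 201 were low in both tissues. All treated sheep were between 444 and 1238 in either tissue. LOC114114488 was at 0, 90.1, 93.7 and 77.9 in control livers and at 1.98, 253, 79.2, 88.2 and 145 in control muscles. In treated sheep it was at 56.6, 36.9, 0, 0 and 0 in liver and at 102, 72.8, 0, 0.852 and 1.94 in muscle, so the same animals were near 0 in both tissues. Within a sheep, log2 muscle minus liver of LOC114109396 lay between -0.42 and 0.74 over the 9 sheep, and that of LOC114114488 between -0.09 and 1.58.

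Genes expressed mainly in 1 tissue reached an unadjusted p under 0.05 at a higher rate than genes at like levels in both, although the latter held more of the 573 genes. The mean level over all libraries was over 16-fold higher in liver for 305 genes, of which 10.5% had an unadjusted p under 0.05, and over 16-fold higher in muscle for 301 genes, of which 8.64% did. Among the 6045 genes within 2-fold the share was 4.04%, or 130 genes above and 114 below. The median SE of the difference was 0.48 and 0.45 in the outer classes and 0.36 in the middle one. Of the 573 genes, 25 (4.36%) reached the filter in 1 tissue only through the group in which they were high. Over all 11697 genes 295 did (2.52%). A difference was built into the selection of such genes, and their number in each class was not counted. Liver and muscle are scaled apart, so these classes are approximate.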

How the data were processed

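RNA was isolated from liver and muscle with Trizol and made into libraries with a TruSeq RNA kit, per the labels' protocols. The submitters' processing notes name the trimmer Trimmomatic, the aligner STAR and the read counter featureCounts 1.6.1. Build, annotation and strand use are not given in the sources used here, so reads of overlapping or antisense genes may be mixed. The deposited signal is a normalized count, the number of reads divided by a size factor that the authors set within each tissue. All values were whole multiples of 1 read within 0.01 read, which gave the reads back. In the gene table of assembly ARS-UI_Ramb_v3.0, 22250 identifiers were found by symbol and 458 by number, and 5816 were not found. No sequences or coordinates are given.

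Genes with a mean of at least 10 in both tissues entered a limma 3.58.1 fit (R 4.3.3) of the 4 group means on log2(value + 1), with a trend of variance on level and adjustment by Benjamini-Hochberg at 0.05. The pseudocount of 1 understates changes of low genes. Alternatives were DESeq2 1.42.0 and edgeR 4.0.16 on recovered reads, other pseudocounts, filters, scalings and weights, a sheep block, and fits without 1 library or sheep. Sheep numbers pair both tissues of an animal per the labels. Residuals of the same sheep correlated across tissues at 0.103 to 0.349 (median 0.177), those of different sheep at a median of -0.0194, and for 7 of 9 livers the muscle of highest correlation was that of the same sheep. The fits were also run on simulated counts drawn independently for each library. That run held no pairing of sheep and no component shared among livers, so it does not cover those features of the data. With 4 or 5 animals a group, the number of animals limits precision.

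The comparison, the 20 functional and 9 marker lists and the tests were chosen with earlier results of these data known. Named genes were, per direction, the 8 with the smallest p and up to 3 more called by DESeq2, the 2 members of smallest p in each functional list, 16 set genes and 4 with like effects in both tissues, 74 in all, of which 1 set gene is not reported here. Lists are described by counts and medians.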

Additional observations from a re-analysis of the deposited data

Results flagged for a closer look

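TMEM82 is listed here because its treatment effects differed between muscle and liver by the test of the difference itself, at 1.87 on the log2 scale (limma adjusted p = 0.0497).

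Single animals far from the rest of their group were found in 16 of 296 groups of values of the named genes (5.41%), where chance alone gives about 1 in 20. In control livers, sheep 179 was lowest for AGPAT1 (229) and CIITA, the regulator of MHC class II genes (5.805), sheep 98 was highest for the viral RNA sensor DDX58 (588) and lowest for LOC114114488 (0), and sheep 201 was highest for CANT1 (1273). In treated livers, sheep 255 was lowest for CIITA (9.75), sheep 63 lowest for NUP58 (44.6) and sheep 233 highest for the heat shock co-chaperone DNAJB1 (653). In control muscles, sheep 201 was lowest for LDHA (18458) and highest for SPP1 (97.1), sheep 131 lowest for the lysosomal protease CTSD (1895) and sheep 98 lowest for LOC114114488 (1.98). In treated muscles, sheep 255 was highest for RNASE13 (159), sheep 185 lowest for LOC101120001 (0.727) and highest for RPL30, a ribosomal protein (82.9), and sheep 48 lowest for LOC114109396 (444).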

How the results depend on the processing

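The limma count of 1 gene became 0 with a pseudocount of 4, no filter on low values, cyclic loess, weights per group, robust shrinkage, edgeR, or the replicate block by muscle minus liver within 9 sheep. It was 3 with weights per library (DDX11, LOC101106372 and TMEM82), 11 by DESeq2, and 667 without the livers of control 179 and treated 185, a setting added after seeing the data. With the sheep as replicate block over 19 libraries it stayed at 1, TMEM82. Without 1 library or sheep it ran from 0 to 2, and without liver control 201 the 1 gene was MUSTN1. The 573 genes at an unadjusted p under 0.05 became 1148 without a filter, 1669 with weights per library and 3220 in the added setting, and ran from 387 to 1705 without 1 library or sheep. Of those, 52.2% lay above 0, against 64.1% with TMM (357 above, 200 below), 70.2% without a filter (806 and 342), 62.7% in the paired block (375 and 223) and 45.2% with a mean of at least 50 (196 and 238), and from 45.6% to 59.5% without 1 library or sheep. The rank correlation of the effects across genes ran from -0.0045, without liver control 179, to 0.194 without 1 library or sheep, and reversed to -0.026 in the added setting.

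Among named genes, 2917 of 3095 values under the alternatives kept direction and side of the threshold. Most of these were genes without a call that stayed so. A call was lost in 31 values, all of TMEM82, the 1 gene that had one, and gained in 40, of which 28 in the added setting and 10 by DESeq2. In all, 10 genes with differences near 0 or wide intervals, none called by limma or DESeq2, changed sign somewhere. INSR became -0.093 with weights per library, -0.00165 and -0.039 in the blocks and -0.076 in the added setting. IGF1 became 0.037 in the paired block and 0.044 by edgeR and by DESeq2. NR3C1 became 0.014 with cyclic loess. PPARGC1A became -0.13 with weights, -0.0053 in the paired block, -0.33 by edgeR and DESeq2 and -0.24 in the added setting. ADIPOR1 became 0.000235 with a pseudocount of 0.25, 0.041 with TMM, 0.12 with cyclic loess, 0.046 with weights, 0.00226 and 0.019 in the blocks and 0.15 in the added setting. ADIPOR2 became -0.0071 by edgeR and -0.0067 by DESeq2. SPP1 became -0.88 with a pseudocount of 4, -0.074 with cyclic loess, -0.52 with weights, -0.30 in the paired block and -0.47 in the added setting. LOC114114488 became 0.13 by edgeR and DESeq2, and PSME2 -0.053 in the added setting. Without 1 library or sheep the differences ran from -0.15 to 0.13 for ADIPOR1, -0.20 to 0.23 for ADIPOR2, -0.48 to 0.42 for IGF1, -0.073 to 0.13 for INSR, -1.64 to 0.28 for LOC114109396, -1.30 to 1.397 for LOC114114488, -0.41 to 0.0078 for NR3C1, -0.39 to 0.39 for PPARGC1A and -1.12 to 1.35 for SPP1. The cause of these changes was not tested. Few animals and the spread among livers limit what can be detected.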
